A study of Mus musculus with 9 samples.

Results

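The genes described are Tgfb1, Tgfbr1, Tgfbr2, Smad2, Smad3, Smad4, Smad7, Ski and Skil, the core of the TGF-beta pathway as T cells use it. They were picked by symbol and role, not by a measured value, and all 9 were found among the 23415 gene rows of the deposited table. All 9 also passed the filter on low values, which 11495 rows passed. TGF-beta is a secreted cytokine that restrains effector T cells and, in the intestine, favours regulatory T cells, Th17 cells and tissue residency. It binds a type II receptor (Tgfbr2), which phosphorylates a type I receptor (Tgfbr1). The type I receptor phosphorylates SMAD2 and SMAD3, these join SMAD4 and enter the nucleus, while SMAD7, SKI and SKIL hold the response back.

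The libraries came from a T cell transfer colitis experiment, in which naive T cells cause inflammation of the large intestine in mice that have no T or B cells of their own. The first group held 4 libraries of colonic CD4+ T cells from Rag1-/- recipients of naive CD4+CD25-CD45RBhigh donor cells of the genotype CD160 Knockout. The second held 5 libraries of colonic CD4+ T cells from Rag1-/- recipients of the same naive cell type of the genotype Control, which were wildtype littermates. CD160 is a surface receptor of T and NK cells with an immunoglobulin domain, and the comparison asks how transferred T cells without it differ at the peak of colitis. Each library was made from 5000 sorted cells. The sources used here give neither the deleted part of the Cd160 gene nor the age of the animals. They also do not say whether each library is a separate recipient, so p-values here speak of library-to-library spread, which may be technical. Values are in TPM, a relative transcript abundance scaled to one total per library, which corrects for transcript length and library total. Levels of different genes are compared on this scale alone, and other differences in how well genes are measured were not examined. The read depth behind the values is unknown.

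Control replicate 1 stood apart from the other libraries. It had 7308 genes at 1 TPM or more, against 11088 to 11711 in the other 8 libraries, and a median rank correlation (Spearman, across genes) of 0.737 to the rest, against 0.936 to 0.955. The comparisons of the 9 genes are therefore given with all 9 libraries and with the 8 libraries left without it. Cd160 itself was listed at 14.5, 5.44, 7.51 and 18.8 TPM in knockout replicates 1 to 4, against 31.8, 65.9, 212.4, 41.5 and 151.2 TPM in control replicates 1 to 5. Every knockout library lay below every control library, but none was at 0. The CD4 T cell markers were present, with 8 of 8 listed genes at 1 TPM or more in every knockout library and in control replicates 2 to 5. Their summed level was 3788 to 4930 TPM in knockout libraries and 4659 to 5419 TPM in control replicates 2 to 5, and 1724 TPM in control replicate 1. Of the 8, 7 had a lower mean in knockout libraries than in control replicates 2 to 5. Cd3g did not overlap between them, at 1066 to 1193 TPM in knockout libraries and 1348 to 1568 TPM in those controls (log2 difference -0.36, unadjusted limma p 0.000751, adjusted 0.117). It had the smallest limma p of the 8 genes there, and the groups did not overlap for 7.02% of all tested genes. With all 9 libraries the log2 difference of Cd3g was -0.10 (unadjusted limma p 0.744). Macrophage transcripts were also abundant. The 12 macrophage markers summed to 12812 to 30600 TPM in knockout libraries and to 4704 to 18708 TPM in control replicates 2 to 5, with 1529 TPM in control replicate 1. All 12 had a higher mean in knockout libraries than in control replicates 2 to 5, and the summed levels of the groups overlapped. Each of the 12 was at 1 TPM or more in every library of these 8. Macrophages also transcribe TGF-beta receptors and SMAD genes, and in bulk RNA a difference in the number of cells of a type cannot be told apart from a difference in RNA per cell.

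The type II receptor transcript was the most abundant of the 9 and the ligand transcript the least. In the 8 libraries without control replicate 1, Tgfbr2 averaged 75.9 TPM, followed by Skil at 30.8, Ski at 20.0, Tgfbr1 at 16.5, Smad3 at 15.6, Smad2 at 8.31, Smad7 at 6.44, Smad4 at 6.10 and Tgfb1 at 1.47 TPM. Tgfbr2 lay above Skil, Skil above Ski, Smad3 above Smad2, Smad2 above Smad7 and Smad4 above Tgfb1 in 8 of 8 libraries each. Ski lay above Tgfbr1 in 7 of 8. The order of the remaining neighbours was not fixed. Tgfbr1 lay above Smad3 in 4 of 4 knockout libraries and in 1 of 4 control libraries, and Smad7 lay above Smad4 in 1 of 4 knockout libraries and in 4 of 4 control libraries. In control replicate 1, left out of these counts, Tgfbr1 lay above Smad3 and Smad4 above Smad7. Whether the order differs between the groups was not tested. Between the 8 libraries the spread was widest for the receptors and Smad3, with a coefficient of variation of 35.3% for Tgfbr1, 27.8% for Tgfbr2 and 26.2% for Smad3. It was narrowest for Tgfb1 at 9.95% and Ski at 11.4%.

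**Figure D1:**
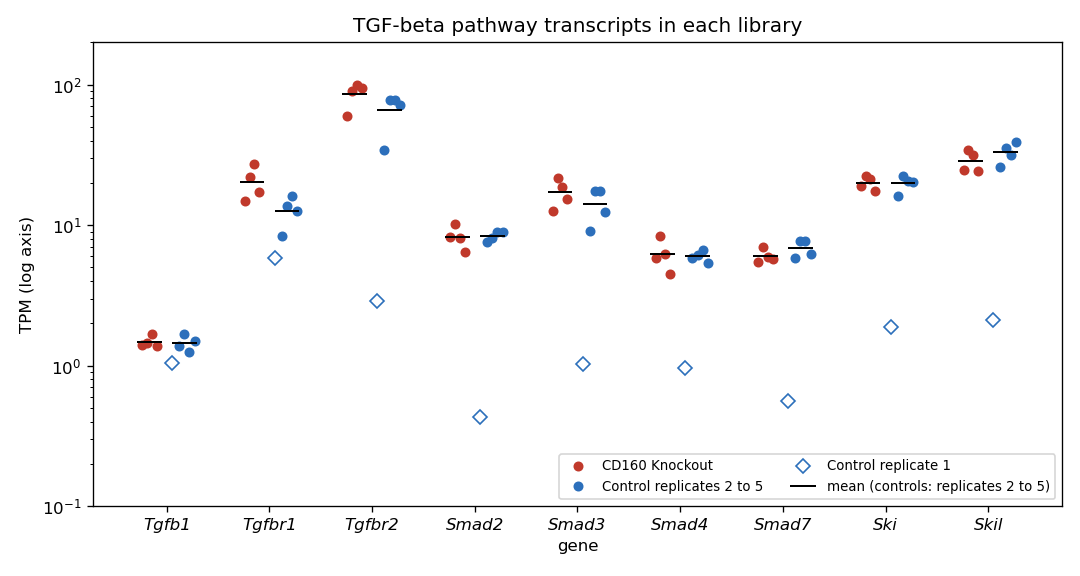
TPM on a log axis of the 9 TGF-beta pathway genes in each library, with CD160 Knockout libraries in red to the left of control libraries in blue; short lines mark the means of the 4 knockout libraries and of control replicates 2 to 5, and the open diamond is control replicate 1. The filled points of the groups overlap for each gene, and the diamond is the lowest point of each gene, from 0.43 TPM for Smad2 to 5.81 TPM for Tgfbr1.

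With group alone in the model, on TPM as deposited, Tgfbr1 had the smallest p-value of the 9 genes, without passing the threshold. This place was lost under other scalings of the 9 libraries and with the replicate number as a block. Tgfbr1 (ENSMUSG00000007613.15, GRCm38 chromosome 4, 47353222 to 47414931, plus strand) encodes the kinase receptor that phosphorylates SMAD2 and SMAD3. It stood at 14.8, 22.2, 27.0 and 17.1 TPM across knockout replicates 1 to 4, against 5.81, 8.35, 13.7, 16.0 and 12.6 TPM across control replicates 1 to 5. Of the knockout libraries 3 lay above all controls, and knockout replicate 1 lay below control replicate 4, so the groups overlapped. The means were 20.3 ± 5.45 TPM (SD, n = 4) in the knockout group, against 11.3 ± 4.14 TPM (SD, n = 5) in control libraries, or 12.7 ± 3.21 TPM (SD, n = 4) in control replicates 2 to 5. In limma, the log2(TPM + 1) difference, knockout minus control, was 0.83 (standard error 0.42, adjusted p 0.745). In the 8 libraries it was 0.64 with a standard error of 0.23, a 95% interval of 0.11 to 1.17, an unadjusted p of 0.0240 and an adjusted p of 0.298. Under median-of-ratios scaling of the 9 libraries the difference was 0.25 (p 0.541, adjusted limma p 0.793), and under quantile normalization 0.26 (p 0.474, adjusted limma p 0.779). In those fits Tgfbr2 (unadjusted limma p 0.0882 and 0.101) and Smad3 (unadjusted limma p 0.128 and 0.174) had smaller p-values than Tgfbr1. So did Tgfb1 (unadjusted limma p 0.364 and 0.264), with negative differences of -0.36 and -0.43. Exact two-sided permutation of the same log values, on TPM as deposited, gave p = 0.0317 with 9 libraries and p = 0.0571 with 8.

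Tgfbr2 (ENSMUSG00000032440.13, GRCm38 chromosome 9, 116084293 to 116175360, minus strand), the receptor that binds the ligand, showed a wider spread. It stood at 60.3, 89.9, 99.3 and 95.2 TPM across knockout replicates 1 to 4, against 2.87, 34.2, 78.3, 78.2 and 72.1 TPM across control replicates 1 to 5. Again 3 of 4 knockout libraries lay above all controls, while knockout replicate 1 lay below control replicates 3 to 5. The means were 86.2 ± 17.7 TPM (SD, n = 4) in the knockout group, against 65.7 ± 21.2 TPM (SD, n = 4) over control replicates 2 to 5. For Tgfbr2 the log2 difference was 1.24 (standard error 0.83, adjusted limma p 0.745), and 0.43 (standard error 0.28, adjusted p 0.577) in the 8 libraries. Control replicate 1 thus set most of the size of the first value. Leaving out control replicate 2 as well, the lowest of the other controls, gave 0.15 (adjusted limma p 0.669).

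The stretches before the annotated starts of the receptor genes are shown because these had the largest differences of the 9 in the 8 libraries. They are the 250 bases upstream in RefSeq (GRCm38.p6), at chr4:47352972-47353221 on the plus strand for Tgfbr1 and chr9:116175364-116175613 on the minus strand for Tgfbr2, written 5′ to 3′ with GC boxes (GGGCGG) and SMAD elements (CAGAC) on either strand in capitals.
Tgfbr1: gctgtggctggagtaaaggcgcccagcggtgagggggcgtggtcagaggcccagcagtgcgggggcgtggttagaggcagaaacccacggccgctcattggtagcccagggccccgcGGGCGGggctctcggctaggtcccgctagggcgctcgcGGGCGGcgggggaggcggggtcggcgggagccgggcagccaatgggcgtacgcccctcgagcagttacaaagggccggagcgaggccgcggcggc
Tgfbr2: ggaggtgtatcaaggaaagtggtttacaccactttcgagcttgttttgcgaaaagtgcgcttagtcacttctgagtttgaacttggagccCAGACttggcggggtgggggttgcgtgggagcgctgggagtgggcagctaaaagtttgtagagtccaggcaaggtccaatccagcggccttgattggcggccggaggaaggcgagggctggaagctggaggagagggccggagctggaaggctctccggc
The Tgfbr1 stretch is 74.8% G and C and holds GC boxes beginning 133 and 95 bases before the start. The Tgfbr2 stretch is 58.4% G and C and holds a SMAD element beginning 160 bases before the start, with no GC box of these letters. RefSeq also lists a second Tgfbr1 start, at position 47386216, whose window is 52.8% G and C and holds a SMAD element beginning 203 bases before it and no GC box. The motifs share no bases here. Of 32851 such windows, 32.7% hold GGGCGG and 42.2% hold CAGAC, so a match is common. RefSeq windows were matched for 5 of the 9 genes.

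The receptor levels were set beside the macrophage markers, whose mean was also higher in the knockout group. Knockout replicate 3, with a summed macrophage level of 29805 TPM, had the highest Tgfbr1 and Tgfbr2. Knockout replicate 4 had the highest macrophage level, 30600 TPM, with 17.1 TPM of Tgfbr1 and 95.2 TPM of Tgfbr2. Knockout replicate 1 had the lowest macrophage level of its group, 12812 TPM, and its lowest Tgfbr1 and Tgfbr2. Control replicate 2 had the highest macrophage level among controls, 18708 TPM, and the lowest Tgfbr1 and Tgfbr2 of control replicates 2 to 5. With the mean macrophage level of each library as a covariate, the log2 difference over 8 libraries was 0.61 for Tgfbr1 (95% interval -0.13 to 1.35, adjusted limma p 0.538) and 0.53 for Tgfbr2 (95% interval -0.35 to 1.41, adjusted p 0.638). Without the covariate they were 0.64 and 0.43. Over all 9 libraries the covariate gave 0.44 for Tgfbr1, against 0.83 without it, and -0.28 for Tgfbr2, against 1.24 without it, a change of sign. In that set control replicate 1 also had the lowest macrophage level.

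**Figure D2:**
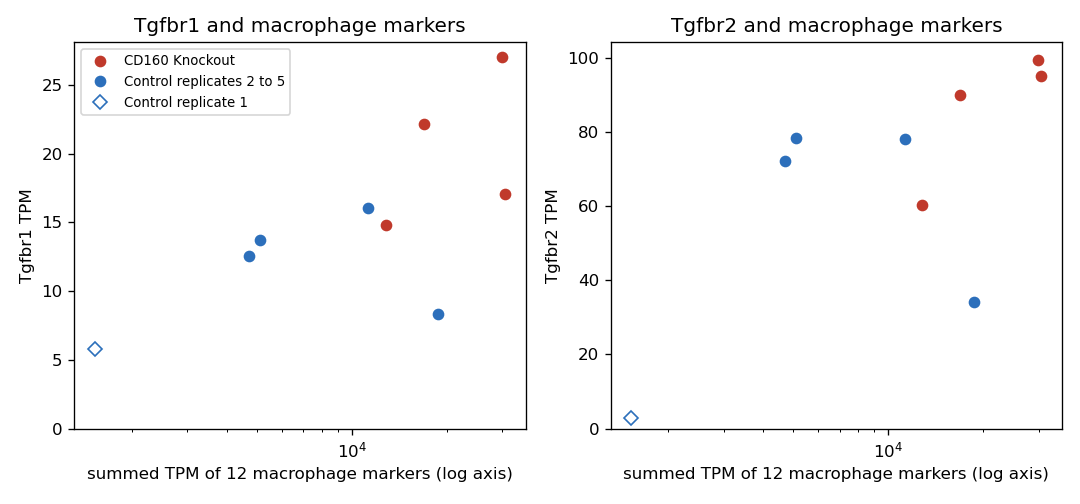
Tgfbr1 (left panel) and Tgfbr2 (right panel) in TPM against the summed TPM of 12 macrophage markers on a log axis, 1 point per library, CD160 Knockout in red and control in blue, with control replicate 1 as an open diamond. Control replicate 2, at 18708 TPM of macrophage markers, has 8.35 TPM of Tgfbr1 and 34.2 TPM of Tgfbr2, below every knockout library.

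The ligand transcript did not separate the groups. Tgfb1 (ENSMUSG00000002603.15, GRCm38 chromosome 7, 25687002 to 25705077, plus strand) stood at 1.41, 1.46, 1.67 and 1.39 TPM across knockout replicates 1 to 4, against 1.04, 1.39, 1.69, 1.26 and 1.5 TPM across control replicates 1 to 5. The knockout range lay inside the control range, with control replicate 3 highest and control replicate 1 lowest. For Tgfb1 the log2 difference was 0.068 (standard error 0.20, adjusted limma p 0.838), and 0.015 with a 95% interval of -0.29 to 0.32 in the 8 libraries (adjusted p 0.981). At this level the log2(TPM + 1) scale understates a change.

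The signal-carrying SMADs fell into a more variable and a less variable gene. Smad3 (ENSMUSG00000032402.12, GRCm38 chromosome 9, 63646767 to 63757994, minus strand) stood at 12.7, 21.8, 18.8 and 15.4 TPM across knockout replicates 1 to 4, against 1.03, 9.07, 17.4, 17.6 and 12.4 TPM across control replicates 1 to 5. Knockout replicates 2 and 3 lay above all controls, and the other knockout libraries lay within the control range. For Smad3 the log2 difference was 0.85 (standard error 0.64, adjusted limma p 0.745), and 0.28 in the 8 libraries (standard error 0.24, adjusted p 0.685). It was 0.10 without control replicate 2 as well.

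Smad2 (ENSMUSG00000024563.16, GRCm38 chromosome 18, 76241580 to 76310963, plus strand), the other receptor-regulated SMAD, stood at 8.19, 10.1, 8.06 and 6.43 TPM across knockout replicates 1 to 4, against 0.43, 7.64, 8.16, 8.87 and 8.98 TPM across control replicates 1 to 5. Knockout libraries held the highest value and, leaving control replicate 1 aside, the lowest. For Smad2 the log2 difference was 0.50 (standard error 0.58, adjusted limma p 0.745) in 9 libraries and -0.045 with a 95% interval of -0.39 to 0.30 in 8 (adjusted p 0.946). Smad4 (ENSMUSG00000024515.13, GRCm38 chromosome 18, 73639009 to 73703780, minus strand), the partner shared by all SMAD complexes, stood at 5.79, 8.38, 6.19 and 4.49 TPM across knockout replicates 1 to 4, against 0.96, 5.84, 6.14, 6.63 and 5.34 TPM across control replicates 1 to 5. As for Smad2, the knockout range enclosed that of control replicates 2 to 5. For Smad4 the log2 difference was 0.39 (standard error 0.45, adjusted limma p 0.745) in 9 libraries and 0.022 with a 95% interval of -0.39 to 0.43 in 8 (adjusted p 0.978). A processed pseudogene lies within the Smad4 span on the opposite strand, and libraries of this kind do not mark strand.

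The inhibitors had differences near or below 0 once control replicate 1 was left out. Smad7 (ENSMUSG00000025880.11, GRCm38 chromosome 18, 75367529 to 75395935, plus strand), which blocks the type I receptor and is itself induced by TGF-beta, stood at 5.44, 6.97, 5.92 and 5.75 TPM across knockout replicates 1 to 4, against 0.56, 5.85, 7.71, 7.69 and 6.22 TPM across control replicates 1 to 5. Apart from control replicate 1, the highest values were in control replicates 3 and 4, and the groups overlapped. For Smad7 the log2 difference was 0.30 (standard error 0.51, adjusted limma p 0.756) in 9 libraries and -0.16 with a 95% interval of -0.49 to 0.17 in 8 (adjusted p 0.714).

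Skil (ENSMUSG00000027660.16, GRCm38 chromosome 3, 31095058 to 31122577, plus strand) encodes the co-repressor SnoN and lies on the same chromosome as Cd160, at 96798763 to 96829351. It stood at 24.5, 34.1, 31.5 and 24.4 TPM across knockout replicates 1 to 4, against 2.11, 26.0, 35.6, 31.6 and 39.1 TPM across control replicates 1 to 5. Control replicates 3 and 5 lay above every knockout library. For Skil the log2 difference was 0.49 (standard error 0.72, adjusted limma p 0.748) in 9 libraries and -0.20 with a 95% interval of -0.57 to 0.17 in 8 (adjusted p 0.666). Ski (ENSMUSG00000029050.15, GRCm38 chromosome 4, 155154075 to 155222592, minus strand), the related co-repressor, stood at 19.0, 22.4, 21.4 and 17.6 TPM across knockout replicates 1 to 4, against 1.88, 16.2, 22.5, 20.7 and 20.3 TPM across control replicates 1 to 5. The knockout range lay inside that of control replicates 2 to 5. Ski averaged 20.1 ± 2.22 TPM (SD, n = 4) in the knockout group, against 19.9 ± 2.68 TPM (SD, n = 4) without control replicate 1 in the control group. For Ski the log2 difference was 0.58 (standard error 0.62, adjusted limma p 0.745) in 9 libraries and 0.014 with a 95% interval of -0.29 to 0.32 in 8 (adjusted p 0.982).

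As a group, 0 of the 9 genes passed the adjusted threshold of 0.05 in limma with 9 libraries, where 0.0174% of all tested genes passed, and 0 of 9 with 8 libraries, where 0.0262% passed. At an unadjusted p under 0.05 there were 0 of 9 against 6.39% of all genes in the first fit, and 1 of 9, Tgfbr1, against 12.8% in the second. The groups did not overlap for 0 of 9 genes in either set, against 4.93% and 7.02% of all genes. All 9 differences were positive with 9 libraries, where 86.7% of all genes were positive, but those of Tgfb1, Smad4, Smad7 and Skil were negative under median-of-ratios scaling or quantile normalization. With 8 libraries 6 were positive and 3 negative, beside 47.5% positive among all genes. The median of the 9 was 0.50 with 9 libraries and 0.015 with 8, beside 0.46 and -0.014 for all tested genes.

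**Figure D3:**
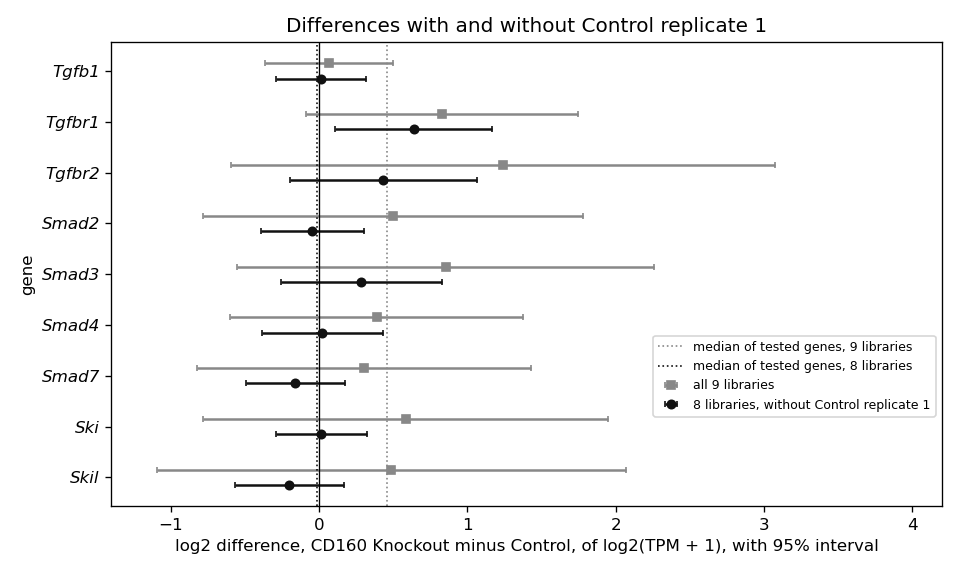
Differences in log2(TPM + 1), CD160 Knockout minus Control, with 95% intervals from limma, for the fit of all 9 libraries (grey squares) and of the 8 libraries without control replicate 1 (black circles); dotted lines mark the medians of all tested genes, 0.46 and -0.014. Of the 18 intervals, the interval of Tgfbr1 in the 8 libraries, 0.11 to 1.17, is the one that lies above 0.

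Ratios between these genes within a library do not depend on the library's total. Smad7 relative to Smad3, the feedback inhibitor against the transcription factor it restrains, lay lower in all 4 knockout libraries than in all 5 controls as a ratio of TPM, but not as a ratio of TPM + 1. The ratio of TPM was 0.429, 0.32, 0.315 and 0.375 in knockout replicates 1 to 4, against 0.544, 0.645, 0.443, 0.438 and 0.503 in control replicates 1 to 5. Control replicate 1 lay inside the range of the other controls here, unlike for the levels. The smallest gap was that between knockout replicate 1 and control replicate 4. The mean log2 ratio was -1.49 ± 0.21 (SD, n = 4) in knockout libraries and -0.97 ± 0.23 (SD, n = 5) in control libraries, a difference of -0.51. By exact two-sided permutation p was 0.0159, the smallest that 4 against 5 libraries allow, and 0.0635 after adjustment over the 4 ratios compared. In the 8 libraries the difference was -0.49 with an exact p of 0.0286, the smallest for 4 against 4, and 0.0571 after adjustment. The ratio thus missed the threshold after adjustment. As a ratio of TPM + 1 the groups overlapped, since knockout replicate 1 at 0.471 lay above control replicate 4 at 0.468. The log2 difference was then -0.55 with 9 libraries (exact permutation p = 0.0317, adjusted 0.127) and -0.44 with 8 (exact permutation p = 0.0571, adjusted 0.114). Across all pairs of tested genes above 0 TPM in every library, the groups did not overlap for 5.35% of ratios with 9 libraries and for 7.61% with 8.

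The other ratios followed control replicate 1 or overlapped. Skil relative to Ski was 1.29, 1.52, 1.47 and 1.39 in knockout replicates 1 to 4, against 1.12, 1.61, 1.58, 1.52 and 1.93 in control replicates 1 to 5 (rounded values; knockout replicate 2 lay just below control replicate 4). Every knockout library lay below control replicates 2 to 5 and above control replicate 1. With 8 libraries such a lack of overlap held for 7.61% of ratios between tested genes above 0 TPM in every library. The log2 difference of Skil/Ski was -0.11 with 9 libraries (exact permutation p = 0.476, adjusted 0.635) and -0.22 with 8 (exact permutation p = 0.0286, adjusted 0.0571, or 0.114 as a ratio of TPM + 1). Smad3 relative to Smad2 was 1.55 to 2.39 in knockout libraries and 1.19 to 2.40 in the controls; its log2 difference was 0.24 (exact permutation p = 0.317, adjusted 0.635). Tgfbr2 relative to Tgfbr1 was 3.68 to 5.57 in knockout libraries and 4.09 to 5.73 in control replicates 2 to 5, but 0.494 in control replicate 1. The difference in log2 ratio came to 0.43 with 9 libraries (exact permutation p = 0.984, adjusted 0.984) and -0.24 with 8 (exact permutation p = 0.171, adjusted 0.171), opposite in sign.

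**Figure D4:**
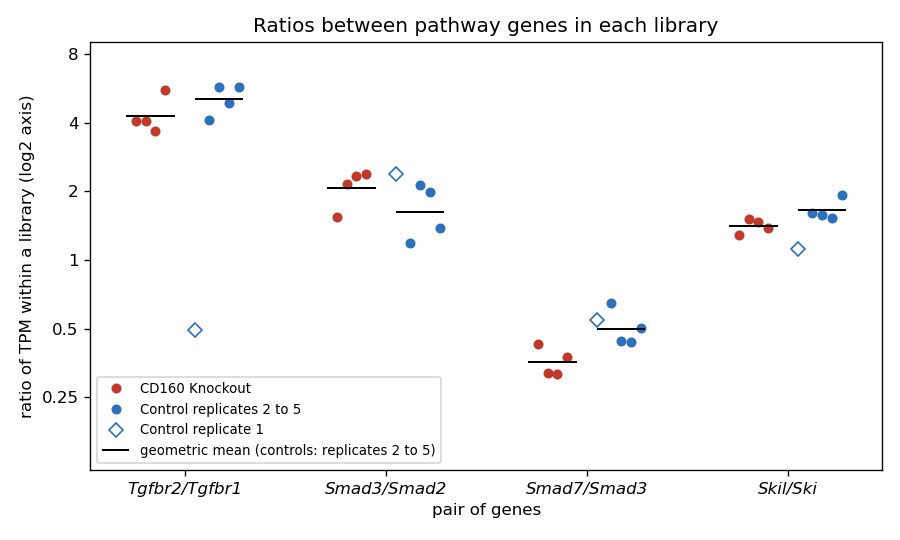
Ratio of TPM between pairs of pathway genes within each library on a log2 axis, CD160 Knockout in red to the left of control in blue; lines mark geometric means of the 4 knockout libraries and of control replicates 2 to 5, and the open diamond is control replicate 1. For Smad7/Smad3 the knockout libraries end at 0.429 and the controls begin at 0.438, a gap that is lost as a ratio of TPM + 1.

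The wider pathway was examined with lists of related genes, holding 85 genes beside the 9, of which 66 passed the filter. In limma 0 of 66 passed the adjusted threshold with 9 libraries or with 8. At an unadjusted p under 0.05, 5 were higher and 0 lower in knockout libraries with 9 libraries, and 4 higher and 2 lower with 8. The background shares were 5.78% of all genes higher and 0.618% lower with 9 libraries, and 8.44% and 4.41% with 8. The median difference of the 66 was 0.41 with 9 libraries and -0.016 with 8. The groups did not overlap for 1 of the 66 with 9 libraries, which was higher in knockout libraries, against 4.93% of all genes. With 8 libraries 1 higher and 1 lower gene did not overlap, against 7.02% of all genes.

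Among ligands, activation factors and co-receptors, 8 of 14 genes were tested and 0 passed the adjusted threshold. Their median was 0.71 with 9 libraries and 0.36 with 8. Nrros, which anchors latent TGF-beta on myeloid cells, stood at 63.4, 61.9, 74.3 and 67.6 TPM across knockout replicates 1 to 4, against 2.32, 54.3, 32.6, 46.7 and 34.6 TPM across control replicates 1 to 5. The groups did not overlap, which held for 4.93% of all genes with 9 libraries and 7.02% with 8. The log2 difference of Nrros was 1.42 with an adjusted limma p of 0.745, and 0.68 (standard error 0.16, adjusted p 0.154) in the 8 libraries. With the macrophage covariate it was 0.35 (adjusted limma p 0.457) over 8 libraries and -0.23 (adjusted limma p 0.928) over 9, where the covariate also follows control replicate 1. Eng, a co-receptor known from endothelium and macrophages, averaged 17.2 ± 6.84 TPM (SD, n = 4) in the knockout group, against 7.17 ± 3.21 TPM (SD, n = 4) over control replicates 2 to 5. Its log2 difference over 8 libraries was 1.13 (adjusted limma p 0.265), and 0.21 with the macrophage covariate. Thbs1, which activates latent TGF-beta, had 0.48 over 8 libraries, and Furin, the most abundant gene of the list, a protease that cleaves the TGF-beta precursor, had -0.018. With the macrophage covariate Thbs1 had 0.031 and Furin 0.26 over these libraries.

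Of the activin and BMP receptors 4 of 11 genes were tested, and of the other SMADs 2 of 4, with 0 past the adjusted threshold in each. Acvrl1, a type I receptor best known from endothelium, averaged 15.1 ± 6.75 TPM (SD, n = 4) in the knockout group, against 7.68 ± 5.59 TPM (SD, n = 4) over control replicates 2 to 5. Its log2 difference over 8 libraries was 1.02 (adjusted limma p 0.454), and -0.27 with the macrophage covariate. Bmpr1a and Acvr1b, type I receptors for BMPs and activins, had 0.29 and 0.13, and Smad1 and Smad5, the SMADs of the BMP branch, had 0.12 and -0.0018. With the macrophage covariate Bmpr1a had 0.052, Acvr1b 0.10, Smad1 0.085 and Smad5 0.060. Of the pathway modulators 27 of 29 genes were tested. With 9 libraries 26 had positive differences and 1 a negative one, with a median of 0.39. Over 8 libraries 12 were positive and 15 negative, with a median of -0.028. Dab2, an endocytic adaptor that binds the receptors, had 1.23 over 8 libraries and -0.30 with the macrophage covariate. Wwp1, a ubiquitin ligase, had 0.67 over 8 libraries and Tgif1, a nuclear repressor, 0.31, with adjusted limma p values of 0.484 and 0.404. With the macrophage covariate they had 0.094 and 0.28. Fkbp1a, a type I receptor partner and the most abundant of the list, had 0.088.

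Genes that TGF-beta induces in T cells had differences of both signs. Of 15 genes beside Skil and Smad7, 14 were tested and 0 passed the adjusted threshold. With 9 libraries 12 were positive and 2 negative, with a median of 0.37 beside 0.46 for all genes. Over 8 libraries 3 were positive and 11 negative, with a median of -0.16 beside -0.014 for all genes. Those with positive differences included Tgfbi, a matrix protein that macrophages also make, at 1.53 (adjusted limma p 0.172), and Entpd1, the ectoenzyme CD39 of regulatory T cells and myeloid cells, at 0.99 (adjusted p 0.207). With the macrophage covariate these were 1.17 and 0.28. Rgs1, a regulator of G-protein signalling in tissue T cells and the most abundant of the list, stood at 902.8, 1317, 1230 and 1143 TPM across knockout replicates 1 to 4, against 70.8, 1524, 1321, 1567 and 1992 TPM across control replicates 1 to 5. Every knockout library lay below control replicates 2 to 5 and above control replicate 1. Without control replicate 1 the groups thus did not overlap, which held for 1 of the 14 tested genes here and for 7.02% of all genes. On TPM as deposited, the log2 difference of Rgs1 was 0.42 with 9 libraries (adjusted limma p 0.779) and -0.48 with 8 (standard error 0.15, adjusted p 0.229). Under median-of-ratios scaling of the 9 libraries it was -0.19 (adjusted limma p 0.833), and with the macrophage covariate -1.38 (adjusted limma p 0.916). The sign of Rgs1 thus depended on control replicate 1, on the scaling and on the covariate. Ccr8, a chemokine receptor of regulatory and Th2 cells, had 0.013 over 8 libraries.

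Itgae and Itga1, also of this list, were chosen after their values were seen. Itgae, which encodes the CD103 integrin chain of intestinal T cells, stood at 171.1, 71.5, 115.1 and 173.4 TPM across knockout replicates 1 to 4, against 6.32, 153.4, 503.8, 108.5 and 472.0 TPM across control replicates 1 to 5. Control replicates 3 and 5 were far above the rest, and the groups overlapped. Cd8a, a CD8 T cell marker, stood at 81.2 and 86.1 TPM in those control libraries and at 3.06 to 23.9 TPM in the other libraries. Cd8b1, the other listed CD8 marker, was not high there, at 4.42 and 1.31 TPM, against 9.88 TPM in knockout replicate 4. Their part in the Itgae level was not tested. The log2 difference of Itgae was 0.022 with 9 libraries and -1.0 with a 95% interval of -2.19 to 0.19 with 8 (adjusted limma p 0.485). Itga1, the collagen-binding CD49a chain, had -0.025 with 9 libraries (unadjusted limma p 0.977) and -0.82 over 8 (unadjusted p 0.0452, adjusted p 0.372), so its difference rested on leaving out control replicate 1.

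Genes that TGF-beta represses in T cells also gave 0 of 13 tested past the adjusted threshold. With 9 libraries 11 were positive and 2 negative, with a median of 0.41. Over 8 libraries 6 were positive and 7 negative, with a median of -0.10. Gzma, a granule protease, averaged 1117 ± 767.7 TPM (SD, n = 4) in the knockout group, against 2829 ± 2558 TPM (SD, n = 4) over control replicates 2 to 5. Its log2 difference was -1.20 (adjusted limma p 0.506), within a wide spread. S1pr1, which lets T cells leave tissues, had 0.29, and Eomes, a factor of cytotoxic cells, had 0.48.

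**Figure D5:**
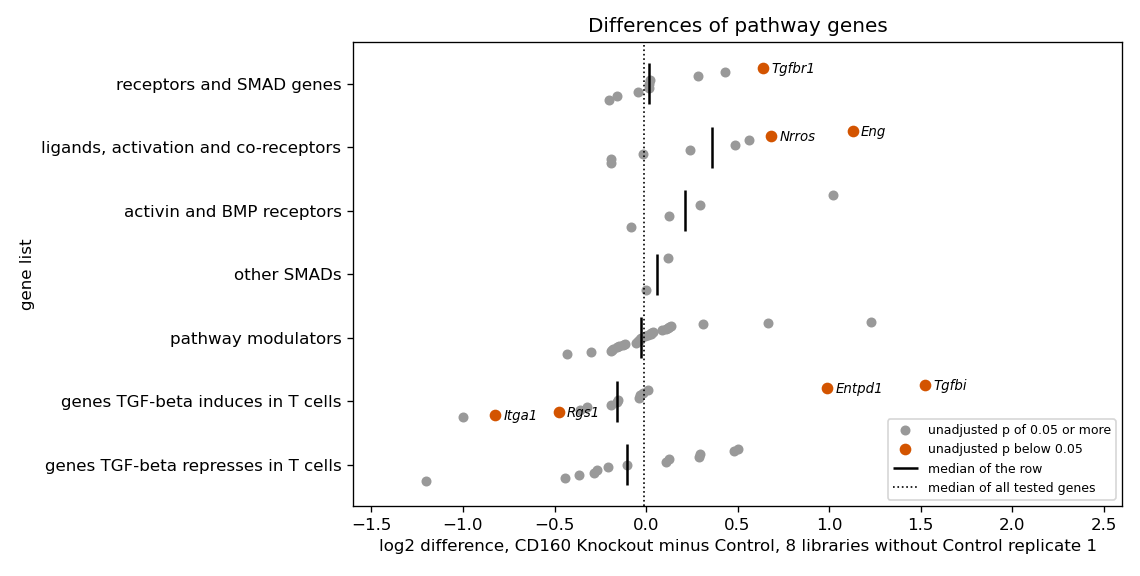
Log2 differences of CD160 Knockout minus Control over the 8 libraries without control replicate 1, 1 point per gene, for the 9 receptor and SMAD genes and the 6 related lists (genes beside the 9); vertical bars mark list medians, the dotted line the median of all tested genes, and orange points an unadjusted limma p under 0.05. Nrros, Eng, Tgfbi and Entpd1 lie at 0.68, 1.13, 1.53 and 0.99, and Rgs1 and Itga1 at -0.48 and -0.82.

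The 9 genes did not share one profile across libraries. Profiles of log2(TPM + 1) were standardised over the 8 libraries and compared by their root mean square difference in SD units, over 11456 other genes for each of the 9. Among the 9 themselves the nearest pair was Tgfbr2 and Smad3 at 0.483, followed by Tgfbr1 and Tgfbr2 at 0.490 and Smad2 and Smad4 at 0.527. The median gene lay at 1.17 from Tgfbr2, and 252 genes lay nearer to Tgfbr2 than Smad3 did. The nearest gene of all was Rp9 for Tgfbr2 at 0.126, Cul1 for Tgfbr1 at 0.236, Lrch4 for Smad3 at 0.192, Prss35 for Smad2 at 0.221 and Pi4k2a for Smad4 at 0.254. For Smad7 it was Cd37 at 0.184, for Ski Rmnd5a at 0.111, for Skil Ankrd10 at 0.200 and for Tgfb1 Il1rap at 0.194. With 8 libraries and so many genes, close profiles are a description of these libraries.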

How the data were processed

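The deposited file holds TPM, which the authors made per gene and scaled to a common total in all 9 libraries. Per the submitters' processing notes, Trimmomatic 0.32, Bowtie2 2.2.9, RSEM 1.2.31 and GRCm38 were used, with no settings given. Libraries were of the SMART-Seq2 type, read as 38-cycle pairs, per the labels' protocols. TPM keeps no depth, so no counting intervals are given. Columns were matched to samples by title. Positions come from GENCODE M21 (GRCm38).

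Genes reaching 1 TPM in 4 or more libraries were compared with limma 3.58.1 (trend) in R 4.3.3 on log2(TPM + 1), knockout minus control, with Benjamini-Hochberg adjustment over all tested genes and a threshold of 0.05. Ratios were compared with exact permutation tests. The fit was tested on simulated data, drawn independently for each gene and library. Those data held no library that stood apart as control replicate 1 did, so that test does not cover its effect. The genes and lists were chosen with earlier results of these data known. From each related list the 3 genes with the smallest unadjusted p over 9 libraries and the most abundant gene were named, and for each of the 9 genes the nearest profile. Alternatives were pseudocounts of 0.1 and 5, no filter or 5 TPM, median-of-ratios, quantile normalization, robust variance, the replicate number as a block and leaving out libraries. A macrophage covariate was added after the data were seen.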

Additional observations from a re-analysis of the deposited data

Results flagged for a closer look

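In 3 of the 9 pathway genes, control replicate 1 lay far below the other controls relative to their spread. Smad2 stood at 0.43 TPM there, against 7.64 TPM in the next lowest control, Smad4 at 0.96 TPM against 5.34 TPM, and Smad7 at 0.56 TPM against 5.85 TPM. Gzma in control replicate 5, at 6561 TPM, lay far above the next highest control at 2365 TPM. These 4 came from 66 groups examined, where chance alone marks about 1 in 20 of independent groups. Of the 4, 3 were control replicate 1, in which 86.8% of tested genes lay below every other library. The 66 groups are thus not independent, and the share of 1 in 20 does not apply to them.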

How the results depend on the processing

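No alternative called any of the 9 genes: of 161 values around the fit of 9 libraries and 99 around that of 8, 0 passed the adjusted threshold, with a lowest adjusted limma p of 0.298 and 0.178. The sign of small differences did depend on the scaling and on control replicate 1. In the fit of 9 libraries, the log2 differences of Tgfb1, Smad4, Smad7 and Skil were -0.36, -0.051, -0.068 and -0.031 with median-of-ratios scaling and -0.43, -0.081, -0.084 and -0.038 with quantile normalization. With the macrophage covariate, those of Tgfb1, Tgfbr2, Smad2, Smad3, Smad4, Smad7, Ski and Skil were -0.014, -0.28, -0.49, -0.24, -0.31, -0.59, -0.46 and -0.77, a fit in which the covariate also follows control replicate 1. Leaving out each library in turn gave -0.045 to 0.66 for Smad2, -0.16 to 0.46 for Smad7 and -0.20 to 0.72 for Skil, each negative without control replicate 1 alone. Around the fit of 8 libraries, leaving out each further library gave -0.025 to 0.059 for Tgfb1, -0.14 to 0.053 for Smad2, -0.11 to 0.14 for Smad4 and -0.078 to 0.074 for Ski, while the sign held for Tgfbr1 at 0.47 to 0.77, Tgfbr2 at 0.15 to 0.59, Smad3 at 0.10 to 0.41, Skil at -0.31 to -0.12 and Smad7 at -0.22 to -0.11. Smad2 had 0.074 with the macrophage covariate in that fit.

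Among all genes, limma called 2 with 9 libraries, and 0 without a filter, 0 with the filter of 5 TPM, 1 with a pseudocount of 5, 1 with the macrophage covariate and 0 to 3 when a library was left out. With 8 libraries it called 3, and 0 to 15 when a further library was left out. The cause was not tested. The log2 difference of Smad7/Smad3 stayed between -0.60 and -0.43 on leaving out any 1 of the 9 libraries, and was -0.55 as a ratio of TPM + 1, where the groups overlapped. That of Tgfbr2/Tgfbr1 ranged from -0.24 without control replicate 1 to 0.65, and was -0.20 in the 8 libraries as a ratio of TPM + 1. That of Skil/Ski ranged from -0.22 to -0.029, and that of Smad3/Smad2 from 0.10 to 0.39.

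No pairing by replicate number was seen, which does not show that the libraries were unpaired. With 9 libraries, deviations of same-numbered libraries correlated at -0.14 to -0.017, and 0 of 8 numbered libraries correlated best with their own number. With 8 libraries the correlations were -0.21 to -0.018, and 0 of 6 correlated best with their own number. With the number as a replicate block, limma called 0 genes with 9 libraries and 0 with 8, 0 of the 9 pathway genes were called, and Smad4 had -0.0031 over 8 libraries. Tgfbr2 then had a smaller unadjusted limma p than Tgfbr1, 0.0717 against 0.168 with 9 libraries and 0.0393 against 0.0405 with 8. In that fit of 8 libraries their adjusted limma p values were 0.583 and 0.587.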

Other observations

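The low values of control replicate 1 were not uniform across the pathway. Relative to the mean of control replicates 2 to 5, the median tested gene stood there at 11.5%. Tgfbr2 stood at 4.37%, Smad2 at 5.11%, Skil at 6.38%, Smad3 at 7.30%, Smad7 at 8.15%, Ski at 9.43% and Smad4 at 16.0%. Tgfbr1 stood at 45.9% and Tgfb1 at 71.2%. Tgfbr1 was the most abundant of the 9 genes in that library, at 5.81 TPM against 2.87 TPM of Tgfbr2, whereas Tgfbr2 was the most abundant in each of the other 8 libraries.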
